A study of Mus musculus with 16 samples.

Results

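The MEK inhibitor GDC-0623 was added to an agonist anti-CD40 antibody in mice bearing B16-OVA tumors, and whole tumors that received both (MEKi+CD40, 4 mice) were set against tumors that received the antibody with vehicle (CD40, 4 mice). These 8 arrays were chosen by the treatment label, out of 16 in the series. B16-OVA, a melanoma line of mouse origin made to express ovalbumin as a model antigen, was implanted with Matrigel under the flank skin of C57BL/6-Ly5.1 mice aged 6 to 12 weeks. MEKi+CD40 mice were dosed daily with 30 mg/kg GDC-0623 and CD40 mice with its methylcellulose tween vehicle, for approximately 2 weeks. Both groups were given CD40 mIgG1 intraperitoneally on treatment days 3, 5 and 7 and again 1 day before the tumors were taken. The tumors were taken on day 18 after inoculation. The other 8 tumors came from mice given the same inhibitor (MEKi) or vehicle (Control) with control IgG, and they are used only where a value without the antibody is needed. All tumors derive from 1 cell line in 1 host strain, and each array holds the RNA of tumor cells together with the host cells inside the tumor.

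MEK is the kinase that phosphorylates ERK at the end of the RAS and RAF cascade. Active ERK switches on growth and immediate early genes and, through D-type cyclins, releases E2F factors that transcribe the genes of DNA synthesis. CD40 is a receptor of dendritic cells, macrophages and B cells, and its engagement licenses these cells to activate T cells. In mixed tissue, fewer cells of a type and less RNA per cell cannot be told apart.

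The pigment genes that mark melanocytes were bright in every tumor. The mean log2 signal of the 13 measured pigment genes was 12.77, 13.22, 13.23 and 13.18 in MEKi+CD40 tumors 1 to 4, against 13.11, 12.83, 12.76 and 12.94 in CD40 tumors 1 to 4. Array medians lay between 5.66 and 5.75 over all 16 arrays. In MEKi+CD40 tumor 1 the 3′ probe sets exceeded the 5′ ones by 0.38 for Gapdh and by 0.91 for Actb, and in all other arrays by no more than 0.08 and 0.44. The lowest correlation between arrays of a group was 0.954 in MEKi+CD40 and 0.982 in CD40. Skeletal muscle transcripts were abundant in MEKi+CD40 tumors 1 and 3 and CD40 tumor 3. The mean of 20 muscle genes was 11.40, 4.76, 8.49 and 4.88 in MEKi+CD40 tumors, against 4.82, 4.83, 7.35 and 4.88 in CD40 tumors. Each result below was also computed without these 3 tumors.

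Adding the inhibitor to the antibody was accompanied by lower signals of genes for DNA replication, nucleotide supply, mitosis, DNA repair and ribosome production. The genes called higher, by the test given next, included 3 of 17 clock output, 3 of 12 S100 and 5 of 22 protocadherin beta genes. The S100 and protocadherin lists were added after the data had been seen, and most protocadherin genes lay near background. Of 45037 probe sets, 1027 (2.28%) were higher and 1106 (2.46%) lower in MEKi+CD40 than in CD40 tumors at a Benjamini-Hochberg adjusted p under 0.05 by limma. Taking the brightest probe set of each of 18193 genes, 573 genes (3.15%) were higher and 598 (3.29%) lower. The 4 MEKi+CD40 tumors lay wholly above the 4 CD40 tumors for 1742 genes (9.58%) and wholly below them for 1491 genes (8.2%). The smallest adjusted p was 0.0105, the median SE of a difference was 0.119 log2 units, and the median difference over all genes was 0.04. Among the called probe sets, 322 were lower by at least 1 log2 unit and 149 were higher by at least 1. The groups did not overlap for 99.95% of all called probe sets. Separation of the groups in a called gene therefore adds no support to its call. All differences below are MEKi+CD40 minus CD40 on the log2 scale, with 4 tumors in each group and adjusted p from limma over all probe sets. The count of genes called or without overlap in each list below is to be read beside these shares of all genes.

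The number of probe sets that passed the adjusted threshold depended on single tumors. Without CD40 tumors 2 or 4 no probe set passed, without CD40 tumor 1 the counts were 7 higher and 0 lower, and without MEKi+CD40 tumor 3 they were 4 higher and 2 lower. Leaving out MEKi+CD40 tumor 4 gave 54 higher and 19 lower, CD40 tumor 3 gave 358 and 405, MEKi+CD40 tumor 2 gave 843 and 1406, and MEKi+CD40 tumor 1 gave 1903 and 1605. Without the 3 tumors holding muscle transcripts, 674 were higher and 852 lower, of which 405 and 581 were among the calls with all tumors. The smallest adjusted p was 0.0672 without CD40 tumor 2 and 0.0553 without CD40 tumor 4. With any 1 tumor left out, all 1027 higher and 1106 lower calls kept their direction and an unadjusted limma p under 0.05. They had been picked for small p with all tumors, so this is not independent support.

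**Figure D1:**
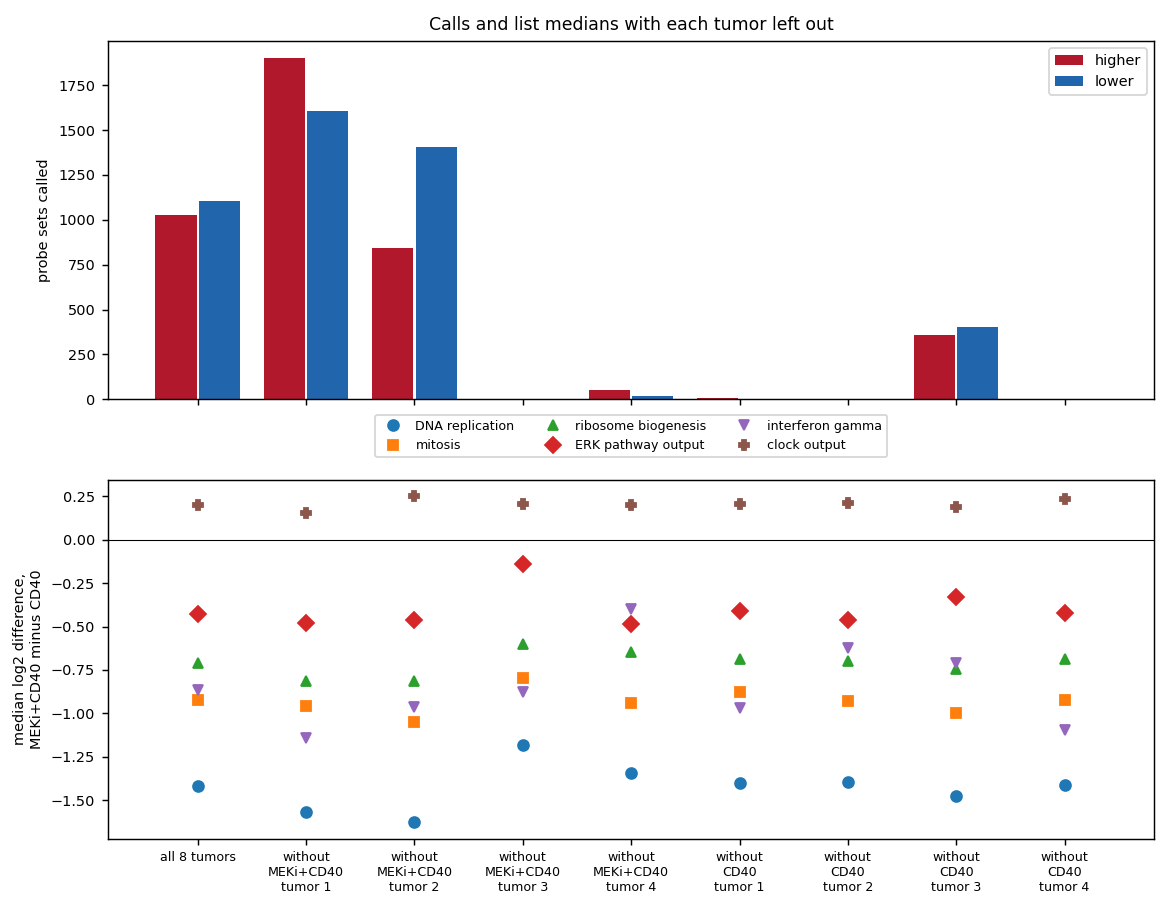
Upper bars show the number of probe sets called higher (red) or lower (blue) in MEKi+CD40 than in CD40 tumors at an adjusted p under 0.05, with all 8 tumors and with each tumor left out, and the lower points show the median log2 difference (MEKi+CD40 minus CD40) over the members of 6 gene lists in the same fits. Counts lay between 0 and 1903, whereas the DNA replication median stayed between -1.63 and -1.18.

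Genes that copy DNA were the group with the lowest median. Of 24 measured DNA replication genes, 20 fell and 0 rose, against 3.29% of all genes that fell, and in all 24 each MEKi+CD40 tumor lay below each CD40 tumor. Their differences ran between -2.14 and -0.83 with a median of -1.42, and the median was -1.35 without the tumors holding muscle. The mean signal of the list was 9.14, 9.19, 7.87 and 8.39 in MEKi+CD40 tumors, against 10.15, 10.14, 9.91 and 10.14 in CD40 tumors. MEKi+CD40 tumor 3 was the lowest of the 8 and MEKi+CD40 tumors 1 and 2 came nearest to the CD40 group. When any of MEKi+CD40 tumors 3 and 4 or CD40 tumors 1, 2 and 4 was left out, 0 of the 24 passed, and without CD40 tumor 3 the number was 5.

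The 4 promoter stretches below are shown because cell cycle genes carry short sequence elements by which they are commonly grouped. They are examples that carry such elements and do not stand for their lists. The shares of genes with a match are given after them. Promoter sequences came from RefSeq on the GRCm38.p6 build and cover the 250 bases before the gene start, written 5′ to 3′ on the strand of the gene. Capitals mark TTCCCGC, the core read by E2F factors, TTTGAA, the cell cycle homology region of mitotic genes, and CCAAT, the box read by NF-Y, each searched on both strands, so that reverse complements are capitalised too. Prim1, at chr10:128014965-128015214 on the plus strand, encodes the primase that starts new DNA strands, and its TTCCCGC shares a base with the CCAAT that follows it. Uhrf1, at chr17:56303087-56303336 on the plus strand, encodes a reader of hemimethylated DNA. Rrm1, at chr7:102441445-102441694 on the plus strand, encodes the large subunit of ribonucleotide reductase. Cdk1, at chr10:69352913-69353162 on the minus strand, encodes the kinase that drives entry into mitosis.
Prim1: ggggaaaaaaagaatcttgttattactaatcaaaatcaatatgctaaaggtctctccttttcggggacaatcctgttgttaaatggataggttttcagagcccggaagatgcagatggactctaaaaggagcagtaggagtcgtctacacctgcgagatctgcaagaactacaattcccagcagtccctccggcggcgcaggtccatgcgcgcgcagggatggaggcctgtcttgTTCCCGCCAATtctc
Uhrf1: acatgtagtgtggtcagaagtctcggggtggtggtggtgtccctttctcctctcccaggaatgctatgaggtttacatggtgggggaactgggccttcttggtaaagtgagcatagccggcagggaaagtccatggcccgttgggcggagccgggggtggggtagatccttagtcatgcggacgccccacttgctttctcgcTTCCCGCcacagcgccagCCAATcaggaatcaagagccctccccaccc
Rrm1: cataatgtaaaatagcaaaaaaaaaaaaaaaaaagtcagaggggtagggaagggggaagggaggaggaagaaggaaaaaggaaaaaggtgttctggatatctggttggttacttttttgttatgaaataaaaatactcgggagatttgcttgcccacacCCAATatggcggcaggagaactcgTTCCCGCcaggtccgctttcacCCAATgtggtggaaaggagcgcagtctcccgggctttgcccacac
Cdk1: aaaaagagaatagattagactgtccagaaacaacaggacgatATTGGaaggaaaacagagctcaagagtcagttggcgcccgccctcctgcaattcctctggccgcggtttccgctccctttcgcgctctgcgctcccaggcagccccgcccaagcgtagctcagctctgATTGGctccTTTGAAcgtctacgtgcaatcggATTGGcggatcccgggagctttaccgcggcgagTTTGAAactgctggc
In windows of 300 bases that also take in the first 50 bases of the gene, TTCCCGC was found for 10 of 20 DNA replication genes with a window (50%), 5 of 10 homologous recombination and Fanconi genes, 3 of 16 nucleotide synthesis genes (18.8%) and 0 of 25 mitosis genes, against 5.29% of 27025 genes. TTTGAA was found for 20 of 25 mitosis genes (80%) and 3 of 20 DNA replication genes (15%), against 20.2% of all genes. CCAAT was present for 20 of 25 mitosis genes and 13 of 20 DNA replication genes (65%), against 41.1% of all genes. In the 250 bases before the gene start alone, TTCCCGC was found for 5 of 20 DNA replication genes (25%) and 0 of 25 mitosis genes, against 4.38% of all genes. TTTGAA was there for 10 of 25 mitosis genes (40%), against 18.3% of all genes. A match here describes letters in a window and is not evidence of binding.

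Among the enzymes at the fork, Pola1, the catalytic subunit of the polymerase that extends primers, was 8.19, 8.19, 7.15 and 7.47 in MEKi+CD40 tumors, against 9.22, 9.25, 9.19 and 9.23 in CD40 tumors. The CD40 tumors hardly differed from each other, and the MEKi+CD40 tumors were all lower, by a mean of 1.47 log2 units or 2.77-fold (SE 0.23, adjusted p = 0.0279). Prim1, its partner, was 9.19, 9.36, 8.21 and 8.66 in MEKi+CD40 and 10.30, 10.32, 10.11 and 10.30 in CD40 tumors, a difference of -1.40 (SE 0.23, adjusted p = 0.0298). Rfc5, part of the loader that places the sliding clamp, was 8.99, 9.24, 8.01 and 8.62 in MEKi+CD40 tumors, against 10.28, 10.36, 9.90 and 10.20 in CD40 tumors (difference -1.47, SE 0.25, adjusted p = 0.0302). The clamp itself, Pcna, was brighter and fell less, with 12.09, 12.69, 11.96 and 12.11 in MEKi+CD40 and 13.27, 13.14, 12.98 and 13.13 in CD40 tumors (difference -0.92, SE 0.16, adjusted p = 0.0305).

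Genes that license and open replication origins showed the same order of groups. Mcm3, a subunit of the replicative helicase, was 6.29, 8.27, 6.12 and 7.07 in MEKi+CD40 tumors, against 9.25, 9.26, 8.84 and 9.02 in CD40 tumors for the probe set with the largest difference. MEKi+CD40 tumor 2 lay closest to the CD40 tumors, and the difference was -2.16 (SE 0.43, adjusted p = 0.0357) with all tumors and -1.51 (adjusted p = 0.0535) without those holding muscle. Gins1, which joins MCM proteins in the active helicase, was 7.77, 7.91, 6.54 and 6.78 in MEKi+CD40 and 9.10, 9.39, 8.90 and 9.25 in CD40 tumors (difference -1.91, SE 0.31, adjusted p = 0.0287). Cdt1, the loader of MCM proteins at origins, was 8.55, 8.60, 6.64 and 7.51 in MEKi+CD40 and 9.65, 9.92, 9.52 and 9.77 in CD40 tumors (difference -1.89, adjusted p = 0.0422). MEKi+CD40 tumor 3 was lowest for all 3 of these genes. The other 4 members of the replication list did not pass with their brightest probe set, although none of them overlapped between the groups. These were Mcm5 (difference -1.80, adjusted p = 0.0516), the origin binder Orc1 (-1.56, adjusted p = 0.0564), Gins2 (-1.09, adjusted p = 0.0765) and Cdc6, another MCM loader (-2.14, SE 0.60, adjusted p = 0.0819). Cdc6 had the widest spread of the 4, with 7.28, 7.42, 4.41 and 6.18 in MEKi+CD40 tumors, against 8.64, 8.36, 8.21 and 8.63 in CD40 tumors. Its value in MEKi+CD40 tumor 3 lay below the background level of 4.94, which was set from olfactory receptor probe sets, so the size of its difference is uncertain. Uhrf1, which is outside the list and keeps DNA methylation on new strands, was 6.84, 8.10, 6.12 and 7.08 in MEKi+CD40 and 9.41, 9.10, 8.68 and 9.20 in CD40 tumors and fell by 2.06 (SE 0.38, adjusted p = 0.0323).

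The enzymes that make nucleotides for DNA fell as well. Of 16 measured nucleotide synthesis genes, 11 fell and 0 rose, with a median of -0.86 and a range of -1.39 to -0.20. Dctd, which is outside the list and makes the dUMP used for thymidylate, was 7.18, 7.16, 5.22 and 6.58 in MEKi+CD40 tumors, against 8.84, 8.59, 8.15 and 8.84 in CD40 tumors (largest probe set, difference -2.07, SE 0.42, adjusted p = 0.0367). Tyms, the thymidylate synthase, was 5.64, 5.48, 4.63 and 5.46 in MEKi+CD40 and 6.61, 6.42, 6.38 and 6.77 in CD40 tumors (difference -1.24, adjusted p = 0.0305). In both, MEKi+CD40 tumor 3 was the lowest and the groups did not overlap. For Tyms this tumor lay below the background level of 4.94, so the size of that difference is uncertain. Rrm1, whose enzyme reduces ribonucleotides to deoxyribonucleotides, was 10.71, 10.91, 10.16 and 10.56 in MEKi+CD40 and 11.41, 11.27, 11.23 and 11.47 in CD40 tumors (difference -0.76, SE 0.16, adjusted p = 0.0374). Gart, of the purine pathway, fell by 1.02 (adjusted p = 0.0417) and the dCTP pyrophosphatase Dctpp1 by 0.74 (adjusted p = 0.0386). Shmt1, which is outside the list and passes a carbon unit to folate, fell by 1.88 (adjusted p = 0.0287).

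Of 30 measured mitosis genes, 23 fell and 0 rose, against 3.29% of all genes that fell. All 30 differences were below 0, and 28 did not overlap between the groups, against 8.2% of all genes that lay wholly below. The median was -0.93, with a range of -1.39 to -0.51, and it was -0.76 without the tumors holding muscle. Cenpe, a motor of the kinetochore, was 8.72, 9.13, 8.60 and 8.94 in MEKi+CD40 tumors, against 9.86, 9.71, 9.56 and 9.80 in CD40 tumors (difference -0.89, SE 0.13, adjusted p = 0.0260). Kif23, a kinesin of the spindle midzone, was 8.40, 8.75, 7.97 and 8.46 in MEKi+CD40 and 9.74, 9.52, 9.24 and 9.51 in CD40 tumors (difference -1.11, adjusted p = 0.0276). Their spread within each group was small beside the distance between the groups. Mki67, the source of the Ki-67 proliferation antigen, was 11.02, 11.02, 10.30 and 11.00 in MEKi+CD40 and 11.86, 11.71, 11.48 and 11.95 in CD40 tumors (difference -0.92, SE 0.18, adjusted p = 0.0366). Cdk1, named here for its promoter after its values were seen, was 10.18, 10.69, 9.77 and 10.24 in MEKi+CD40 and 11.32, 11.14, 11.04 and 11.12 in CD40 tumors (difference -0.94, SE 0.18, adjusted p = 0.0338). The microtubule depolymerase Kif2c fell by 0.97 (adjusted p = 0.0287) and the kinetochore protein Ndc80 by 1.21 (adjusted p = 0.0318).

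Repair genes that act on broken or stalled forks fell, with 1 exception. Of 12 measured homologous recombination and Fanconi genes, 10 fell and 1 rose, with a median of -1.01. Rad54l, a motor protein of homologous recombination, was 7.56, 7.88, 6.76 and 7.02 in MEKi+CD40 and 8.66, 8.90, 8.68 and 8.81 in CD40 tumors (difference -1.46, SE 0.23, adjusted p = 0.0279). Exo1, which resects DNA ends, was 7.16, 7.41, 5.23 and 6.27 in MEKi+CD40 and 8.82, 8.47, 8.18 and 8.65 in CD40 tumors (difference -2.01, adjusted p = 0.0432). The groups were apart in both genes, and MEKi+CD40 tumor 3 was again lowest. The helicase Blm fell by 1.07 (adjusted p = 0.0252), Fanci by 0.94 (adjusted p = 0.0318) and Brca2 by 0.87 (adjusted p = 0.0318). Brca1, named because it was the single member that rose, was 13.11, 13.45, 13.63 and 13.22 in MEKi+CD40 tumors, against 12.91, 12.41, 12.50 and 12.52 in CD40 tumors (difference 0.77, adjusted p = 0.0350). It was measured by 1 probe set and had a difference of 0.72 (adjusted p = 0.0676) without the tumors holding muscle.

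The factors that govern entry into S phase were more mixed. Of 16 measured G1 cyclins, kinases and E2F factors, 4 fell and 0 rose, with 12 differences below 0 and a median of -0.70. E2f1, an activator of S phase genes, was 8.29, 8.55, 7.99 and 8.33 in MEKi+CD40 tumors, against 9.13, 8.94, 8.93 and 9.17 in CD40 tumors (difference -0.75, SE 0.13, adjusted p = 0.0302). Its dimer partner Tfdp1 fell by 0.94 (adjusted p = 0.0357), the repressor E2f8 by 0.95 (adjusted p = 0.0409) and the pocket protein Rbl1 by 0.98 (adjusted p = 0.0298). Ccnd1, the D-type cyclin downstream of ERK, was 10.22, 10.53, 7.61 and 9.64 in MEKi+CD40 and 11.11, 11.11, 11.43 and 11.03 in CD40 tumors. The groups did not overlap, but MEKi+CD40 tumor 3 stood far below the rest and the difference of -1.67 (SE 0.56) had an adjusted p of 0.132. Among 15 measured CDK inhibitors and p53 targets, 0 passed in either direction and 12 differences were above 0, with a median of 0.26. The largest of those named, Phlda3, a p53 target that restrains AKT, was 11.33, 11.56, 11.98 and 11.01 in MEKi+CD40 and 10.41, 10.11, 10.91 and 10.56 in CD40 tumors (difference 0.97, adjusted p = 0.0529), and Zmat3, another p53 target, had a difference of 0.59 (adjusted p = 0.0553).

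**Figure D2:**
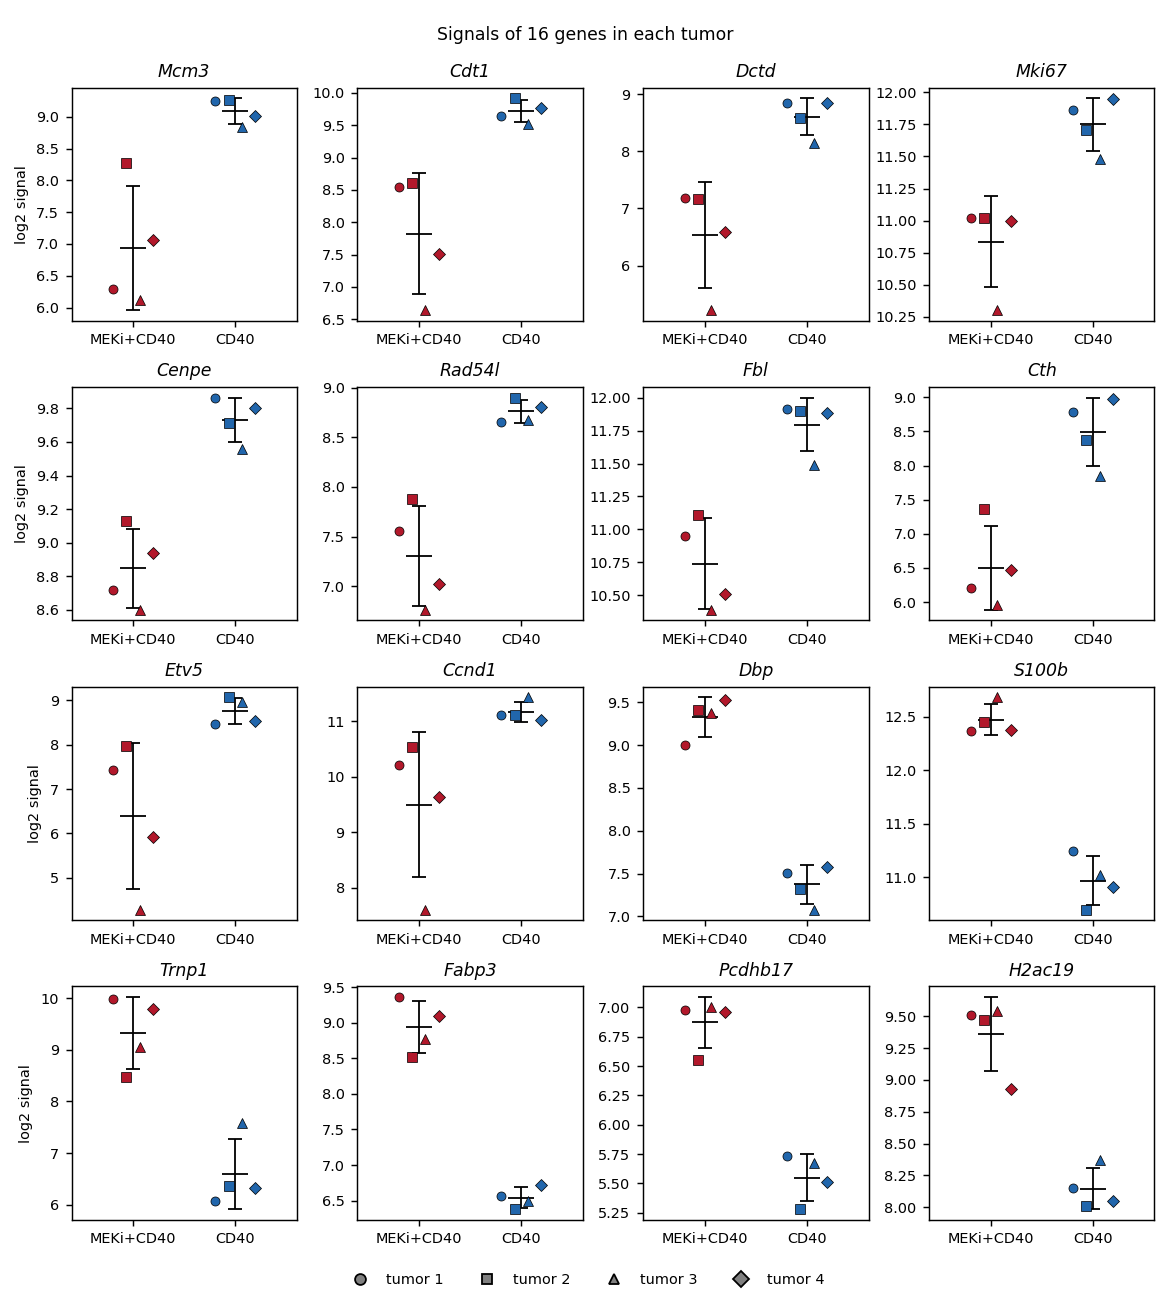
Log2 signal (vertical axes, which do not start at 0) of 16 genes in each MEKi+CD40 tumor (red, left) and CD40 tumor (blue, right), with a marker shape for each tumor number and black bars for the mean and SD of 4 tumors. The groups do not overlap for any of the 16, and MEKi+CD40 tumor 3 is the lowest point for each of the 10 genes that lie lower with the inhibitor, Mki67 (10.30) and Ccnd1 (7.61) among them.

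Genes that build ribosomes fell, with smaller differences than the replication genes. Of 24 measured ribosome biogenesis genes, 9 fell and 0 rose, against 3.29% of all genes that fell. All 24 differences were below 0 (median -0.71, range -1.37 to -0.22). The groups did not overlap for 20 of them, against 8.2% of all genes that lay wholly below. Fbl, the methyltransferase of ribosomal RNA, was 10.95, 11.11, 10.39 and 10.51 in MEKi+CD40 and 11.91, 11.90, 11.49 and 11.88 in CD40 tumors (difference -1.06, SE 0.18, adjusted p = 0.0302). Nolc1, a nucleolar chaperone of small nucleolar particles, was 9.30, 9.76, 8.50 and 9.10 in MEKi+CD40 and 10.56, 10.75, 10.13 and 10.68 in CD40 tumors (difference -1.37, adjusted p = 0.0336). CD40 tumor 3 was the lowest of its group for both, and it was still above every MEKi+CD40 tumor. Gar1, of the pseudouridylation particles, was 9.31, 9.51, 8.50 and 9.07 in MEKi+CD40 and 10.34, 10.33, 9.99 and 10.37 in CD40 tumors (difference -1.16, adjusted p = 0.0318), and Wdr43, which acts in processing of the small subunit, fell by 0.85 (adjusted p = 0.0371). Of 14 mitochondrial ribosomal protein genes, 4 fell and 0 rose (median -0.45), namely Mrps30 (-0.54), Mrps5 (-0.42), Mrps22 (-0.73) and Mrps18b (-0.67), with adjusted p between 0.0287 and 0.0473.

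Protein turnover and folding genes moved by less. Of 42 measured subunits of the constitutive proteasome, 10 fell and 0 rose (median -0.39), and of 9 subunits of the chaperonin CCT, which folds actin and tubulin, 3 fell and 0 rose (median -0.36). Psmc6, an ATPase of the proteasome cap, was 10.60, 10.71, 10.46 and 10.58 in MEKi+CD40 tumors, against 11.13, 11.31, 11.10 and 11.12 in CD40 tumors, a difference of -0.58 with an SE of 0.09 (adjusted p = 0.0260). Both groups were narrow. Psma7 and Psma4 of the core fell by 0.54 (adjusted p = 0.0336) and 0.61 (adjusted p = 0.0357), Psmd1 of the cap by 0.41 (adjusted p = 0.0337), Cct5 by 0.69 (adjusted p = 0.0337), Cct3 by 0.52 (adjusted p = 0.0397) and Cct6a by 0.49 (adjusted p = 0.0358). Without the tumors holding muscle, 0 of the 42 and 0 of the 9 passed, with medians of -0.36 and -0.37. Of 11 heat shock genes, only Hsph1, a partner of Hsp70, passed, at 9.99, 9.75, 9.34 and 9.92 in MEKi+CD40 and 10.94, 10.95, 10.33 and 10.46 in CD40 tumors (difference -0.92, SE 0.19, adjusted p = 0.0400). The proteasome and CCT lists were added after the data had been seen.

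The amino acid stress response, which ATF4 runs when amino acids are short, was lower with the inhibitor in 5 of 18 measured genes and higher in 0 (median -0.70, range -2.0 to 0.24). Cth, which makes cysteine from cystathionine, was 6.20, 7.36, 5.96 and 6.47 in MEKi+CD40 and 8.79, 8.37, 7.85 and 8.97 in CD40 tumors, a 3.99-fold fall (difference -2.0, SE 0.34, adjusted p = 0.0302). Trib3, a pseudokinase induced by ATF4, was 8.63, 9.16, 8.43 and 9.18 in MEKi+CD40 and 10.57, 10.11, 9.66 and 10.37 in CD40 tumors (difference -1.33, SE 0.24, adjusted p = 0.0318). The groups were separate in both genes. Atf4 itself was 11.75, 11.55, 11.36 and 11.78 in MEKi+CD40 and 12.59, 12.41, 12.07 and 12.13 in CD40 tumors (difference -0.69, adjusted p = 0.0402). Asns, the asparagine synthetase, was 10.54, 11.12, 10.89 and 11.04 in MEKi+CD40 and 11.89, 11.74, 11.30 and 11.83 in CD40 tumors (difference -0.79, adjusted p = 0.0405), and Ddit3, which encodes CHOP, fell by 0.47 (adjusted p = 0.0415). Of 17 glutathione and thioredoxin genes, a list added after the data had been seen, 2 fell and 0 rose, against 3.29% of all genes that fell. Gsr, the glutathione reductase, was 8.53, 8.67, 8.10 and 8.19 in MEKi+CD40 and 9.40, 9.57, 9.79 and 9.52 in CD40 tumors (difference -1.20, SE 0.15, adjusted p = 0.0249), and the thioredoxin reductase Txnrd1 fell by 0.66 (adjusted p = 0.0350).

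**Figure D3:**
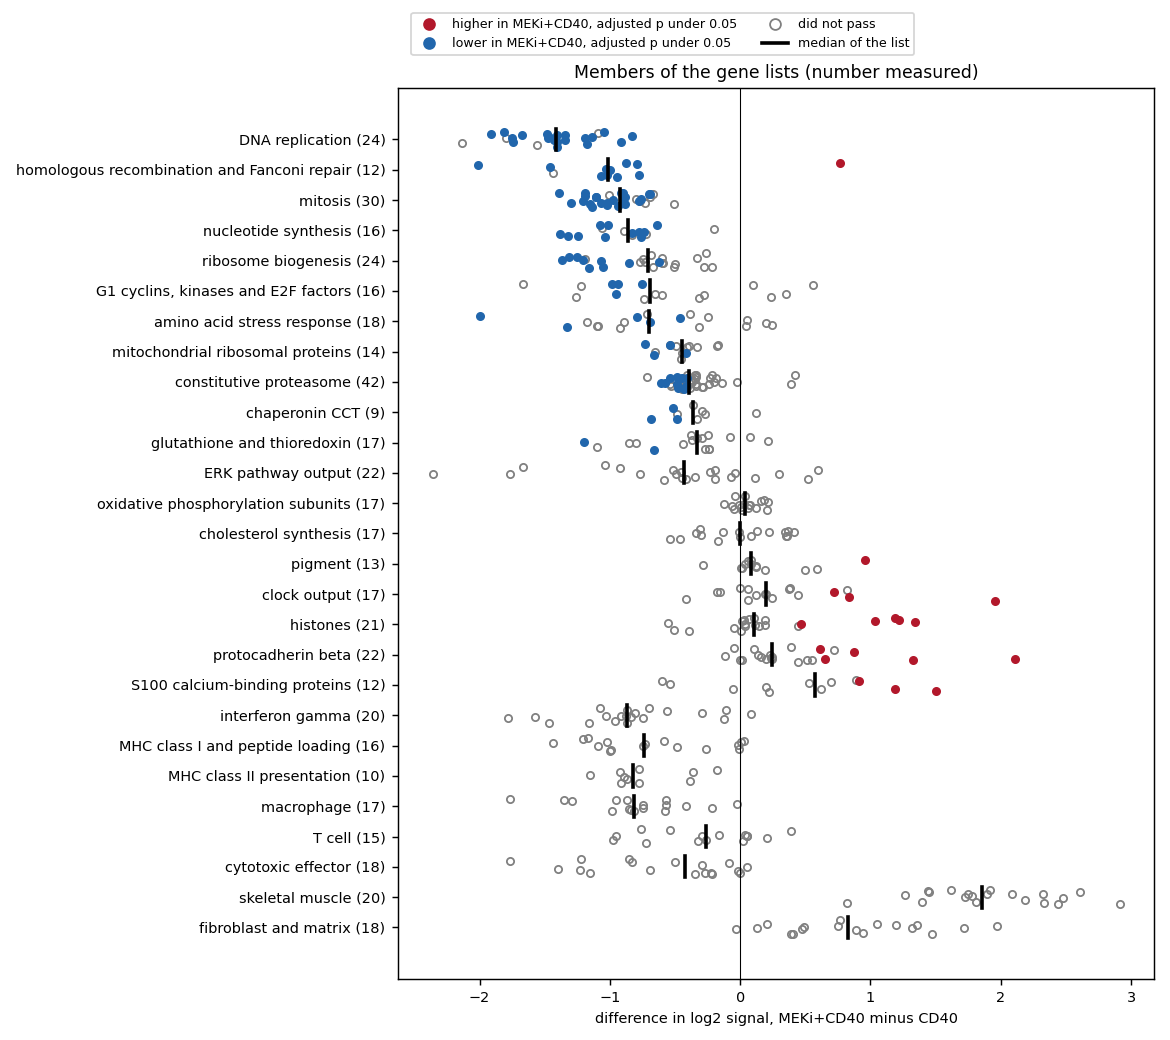
Difference in log2 signal (MEKi+CD40 minus CD40, horizontal axis) of each measured member of 27 gene lists, 1 point per gene, filled blue where it fell and red where it rose at an adjusted p under 0.05 and open where it did not pass, with a black bar at the median of the list. Filled points gather in the lists for replication (20 of 24), mitosis (23 of 30), repair, nucleotide synthesis and ribosomes, and the interferon, MHC, macrophage, T cell and muscle lists hold none.

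The direct transcriptional output of ERK, which the inhibitor targets, was less uniform than the proliferation genes. Of 22 measured ERK output genes, 0 passed with their brightest probe set and 18 differences were below 0 (median -0.43, range -2.36 to 0.60). There were 5 genes lower without overlap, against 8.2% of all genes. Etv5, an ETS factor that ERK induces, was 7.42, 7.96, 4.29 and 5.91 in MEKi+CD40 tumors, against 8.47, 9.06, 8.95 and 8.54 in CD40 tumors (difference -2.36, SE 0.71, adjusted p = 0.0980). The groups were apart, and the MEKi+CD40 tumors ranged over more than 3 log2 units. The other Etv5 probe sets include a pair that passed, with differences of -1.11 (adjusted p = 0.0362) and -1.64 (adjusted p = 0.0287). Dusp6, the phosphatase that turns ERK off again, was 11.82, 12.16, 10.89 and 11.86 in MEKi+CD40 and 12.30, 12.27, 12.19 and 12.30 in CD40 tumors (difference -0.58, SE 0.24, adjusted p = 0.211). Spry4, a feedback inhibitor of the pathway, was 6.52, 6.71, 4.15 and 6.30 in MEKi+CD40 and 6.79, 6.88, 6.83 and 6.87 in CD40 tumors (difference -0.92, SE 0.51, adjusted p = 0.348). For Etv5, Dusp6 and Spry4, MEKi+CD40 tumor 3 was the lowest of the 8, and without it the median of the list was -0.14. This tumor lay below the background level of 4.94 for Etv5 (4.29) and Spry4 (4.15), so the sizes of their differences are uncertain. Phlda1, another early response gene, had a difference of 0.30 in the other direction (adjusted p = 0.109). The 9 measured kinases of the RAS, RAF, MEK and ERK cascade had a median of 0.22 and 0 passed.

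Among the genes that were higher with the inhibitor were outputs of the circadian clock. Of 17 clock output genes, 3 rose and 0 fell, against 3.15% of all genes that rose (median 0.20). Without the tumors holding muscle 3 rose and 1 fell, namely Nfil3, a repressor of PAR bZIP targets, whose difference was -0.68 there (adjusted p = 0.0482) and -0.42 with all tumors (adjusted p = 0.470). Dbp, a PAR bZIP factor that the clock drives through E-boxes, was 9.0, 9.41, 9.37 and 9.53 in MEKi+CD40 tumors, against 7.51, 7.32, 7.08 and 7.58 in CD40 tumors, 3.88-fold higher (difference 1.96, SE 0.15, adjusted p = 0.0105). The distance between the groups exceeded the range within either. Nr1d1, which encodes the repressor REV-ERB alpha, was 6.61, 6.20, 5.93 and 6.14 in MEKi+CD40 and 5.58, 5.21, 5.24 and 5.51 in CD40 tumors (difference 0.84, SE 0.16, adjusted p = 0.0336). Per3, a period gene, was 6.35, 6.49, 6.49 and 6.78 in MEKi+CD40 and 5.73, 6.01, 5.61 and 5.89 in CD40 tumors (difference 0.72, SE 0.12, adjusted p = 0.0302). Tef, a relative of Dbp, had a difference of 0.82 (adjusted p = 0.0563). The hour of tumor collection was not stated, so time of day and treatment cannot be told apart for these genes. CACGTG, the E-box, was found for 5 of 15 clock output genes (33.3%) in the 300-base windows, against 8.09% of all genes.

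Of 12 S100 genes, which encode small calcium-binding proteins, 3 rose and 0 fell, against 3.15% of all genes that rose. S100b, a marker of melanocytes and glia, was 12.37, 12.45, 12.68 and 12.38 in MEKi+CD40 and 11.25, 10.70, 11.02 and 10.91 in CD40 tumors, 2.83-fold higher (difference 1.50, SE 0.13, adjusted p = 0.0154). S100a1 was 13.32, 13.03, 13.31 and 12.88 in MEKi+CD40 and 11.91, 11.59, 12.29 and 11.99 in CD40 tumors (difference 1.19, SE 0.16, adjusted p = 0.0249). Both were among the brighter genes, and neither overlapped. S100a13 was 10.54, 10.07, 10.24 and 10.14 in MEKi+CD40 and 9.24, 9.19, 9.75 and 9.15 in CD40 tumors (difference 0.92, adjusted p = 0.0306), with CD40 tumor 3 nearest to the other group. The median of the list was 0.57 with all tumors, 0.06 without those holding muscle, 0.10 without MEKi+CD40 tumor 1 alone and 0.18 without MEKi+CD40 tumor 3 alone. The same 3 genes rose with all tumors and without those holding muscle, and in the fit without them S100a10 fell by 1.09. Of 13 pigment genes 1 rose with its brightest probe set, against 3.15% of all genes. It was the melanosomal transport protein Oca2, at 12.01, 12.57, 12.86 and 12.23 in MEKi+CD40 and 11.68, 11.31, 11.30 and 11.56 in CD40 tumors (difference 0.96, SE 0.19, adjusted p = 0.0353). Tyrp1, an enzyme of melanin synthesis, had a difference of 0.08 (adjusted p = 0.635). The brightest Trpm1 probe set had a difference of -0.28. Other Trpm1 probe sets had 0.99, 1.26 and 1.28, with unadjusted limma p of 0.001873, 0.00471 and 0.001005. Counting every probe set, 2 of the 13 pigment genes passed.

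Protocadherin beta genes, which encode neuronal adhesion proteins and share much of their sequence, were near background, and 6 of 22 lay above it. In this list 5 passed as higher, of which 2 were below background in both groups, and 0 passed as lower (median 0.24). Pcdhb9 was 6.29, 6.69, 6.85 and 6.01 in MEKi+CD40 and 4.69, 3.93, 4.30 and 4.47 in CD40 tumors (adjusted p = 0.0166), where the background level was 4.94. Pcdhb17 was 6.98, 6.55, 7.00 and 6.96 in MEKi+CD40 and 5.73, 5.28, 5.67 and 5.51 in CD40 tumors (difference 1.33, SE 0.14, adjusted p = 0.0166). All MEKi+CD40 tumors were above background for both, and the CD40 tumors were below it for Pcdhb9, so no exact size is given for that gene. Pcdhb16 rose by 0.88 (adjusted p = 0.0498), and Pcdhb7 and Pcdhb10 passed at mean levels below background in both groups, so no size is given for them. Because these genes resemble each other, signal may be shared between their probe sets and the identity of each member is uncertain.

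Of 21 measured histone genes, 5 rose and 0 fell (median 0.11), against 3.15% of all genes that rose, and 12 of the 21 lay above background. H2ac19 was 9.51, 9.47, 9.54 and 8.93 in MEKi+CD40 tumors, against 8.15, 8.01, 8.37 and 8.05 in CD40 tumors (difference 1.22, SE 0.15, adjusted p = 0.0249). H2aw was 9.66, 9.69, 10.27 and 9.68 in MEKi+CD40 and 8.88, 8.54, 8.93 and 8.80 in CD40 tumors (difference 1.04, adjusted p = 0.0266). For these core histone genes the groups did not overlap, although MEKi+CD40 tumor 4 was low for H2ac19 and MEKi+CD40 tumor 3 high for H2aw. H1f2, a linker histone, rose by 1.34 (adjusted p = 0.0367), H2bc21 by 1.19 (adjusted p = 0.0318) and H2aj by 0.47 (adjusted p = 0.0357). Histone messages of S phase mostly end without a poly(A) tail, whereas the labelling starts at poly(A), and copies of histone genes share sequence. The protocadherin, S100 and histone lists were added after the data had been seen.

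Several of the genes with the largest increases belonged to no list. Trnp1, a nuclear protein of neural progenitors, was 9.98, 8.47, 9.05 and 9.79 in MEKi+CD40 and 6.08, 6.37, 7.59 and 6.33 in CD40 tumors (difference 2.73, SE 0.42, adjusted p = 0.0266). Fabp3, a fatty acid carrier of heart and muscle, was 9.36, 8.52, 8.77 and 9.09 in MEKi+CD40 and 6.57, 6.38, 6.50 and 6.72 in CD40 tumors, 5.25-fold higher (difference 2.39, SE 0.18, adjusted p = 0.0105). Cox7a1, the cytochrome c oxidase subunit of heart and muscle, was 8.67, 8.34, 7.97 and 9.05 in MEKi+CD40 and 6.69, 5.38, 7.35 and 6.59 in CD40 tumors (difference 2.01, adjusted p = 0.0364). Both are expressed in muscle. MEKi+CD40 tumors 2 and 4, whose muscle markers were at background, were above every CD40 tumor for Fabp3 and Cox7a1, and the differences were 2.25 and 2.48 without the tumors holding muscle. Scrg1, named for its response to scrapie, was 9.17, 9.65, 10.75 and 9.16 in MEKi+CD40 and 7.89, 6.79, 7.66 and 7.64 in CD40 tumors (difference 2.19, SE 0.38, adjusted p = 0.0307). Ndrg4 was 11.70, 11.26, 11.64 and 12.02 in MEKi+CD40 and 9.32, 8.83, 10.64 and 9.30 in CD40 tumors (difference 2.13, SE 0.36, adjusted p = 0.0302). Kcnj13, which encodes an inward rectifier potassium channel of pigmented epithelium, was 13.49, 13.69, 13.95 and 12.83 in MEKi+CD40 and 12.03, 11.12, 11.53 and 11.94 in CD40 tumors (difference 1.84, adjusted p = 0.0263). The groups were apart in each of these because only genes without overlap could be named by this rule. Others by the same rule were Prss35 (2.29), Gm4876 (below background in all CD40 tumors, so without an exact size), the ubiquitin ligase Nedd4l (1.86) and the matrix protein Npnt (1.68), with adjusted p between 0.0249 and 0.0495.

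Other large falls outside the lists were those of an ion channel and of chromatin and RNA-binding proteins. Kcnn4, a calcium-activated potassium channel, was 5.53, 5.90, 4.42 and 4.57 in MEKi+CD40 and 7.09, 7.82, 7.34 and 7.54 in CD40 tumors, 5.07-fold lower (difference -2.34, SE 0.34, adjusted p = 0.0260). MEKi+CD40 tumors 3 and 4 lay below the background level for it. Hmga2, a chromatin protein of embryonic and tumor cells, was 7.05, 6.97, 5.59 and 7.54 in MEKi+CD40 and 8.13, 9.06, 9.32 and 8.83 in CD40 tumors (difference -2.05, adjusted p = 0.0379), and the RNA-binding protein Taf15 fell by 2.02 (adjusted p = 0.0323).

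Several immune lists had medians below 0 but wide spread between tumors, and few of their genes passed. Other immune lists had medians above 0 with 0 called. The medians were 0.45 for neutrophil and alarmin, 0.11 for complement, 0.09 for B cell and plasma cell, and 0.01 for regulatory T cell and costimulation genes. Without the tumors holding muscle these medians were -0.05, -0.62, -0.015 and -0.035. Of 20 interferon gamma response genes, 19 differences were below 0 and 0 passed (median -0.87). Of 16 MHC class I and peptide loading genes 0 passed (median -0.74), and of 10 MHC class II genes 0 passed, with all 10 below 0 (median -0.82). The 17 macrophage genes were all below 0 and 0 passed (median -0.81). The mean of the interferon gamma list was 10.44, 9.84, 9.89 and 8.49 in MEKi+CD40 and 10.17, 11.09, 10.85 and 9.88 in CD40 tumors, and that of the macrophage list was 10.12, 8.54, 8.83 and 6.83 in MEKi+CD40 and 8.57, 9.49, 10.72 and 8.74 in CD40 tumors. The groups overlapped in both, with MEKi+CD40 tumor 1 high and tumor 4 low. Without the tumors holding muscle the medians were -1.29 for interferon gamma, -0.99 for MHC class I, -1.18 for MHC class II and -1.33 for macrophage genes, again with 0 called. With the muscle score as a covariate they were -1.24, -1.02, -1.26 and -1.67 for the same lists, with 1 MHC class I gene and 2 macrophage genes called lower. Without MEKi+CD40 tumor 4 the medians were -0.40 for interferon gamma, -0.15 for MHC class II and -0.11 for macrophage genes. The macrophage median was -1.37 without MEKi+CD40 tumor 1 and -0.31 without CD40 tumor 3.

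Cxcl10, a chemokine that draws T cells, was 11.63, 10.87, 10.33 and 8.97 in MEKi+CD40 and 11.36, 12.61, 12.26 and 11.44 in CD40 tumors (difference -1.47, SE 0.55, adjusted p = 0.164). Gzmb, the cytotoxic protease granzyme B, was 7.76, 7.92, 7.26 and 5.25 in MEKi+CD40 and 7.29, 9.49, 10.06 and 8.40 in CD40 tumors (difference -1.76, SE 0.74, adjusted p = 0.215). Cd40 itself was 6.53, 6.06, 6.04 and 5.83 in MEKi+CD40 and 6.23, 7.43, 8.86 and 6.18 in CD40 tumors (difference -1.06, adjusted p = 0.321). The overlap came from CD40 tumor 1 for Gzmb, and from MEKi+CD40 tumor 1 for Cxcl10 and Cd40. Ifng had a difference of -1.40 (adjusted p = 0.319), the MHC class II gene H2-Ab1 -0.87 (adjusted p = 0.539) and the immunoproteasome subunit Psmb8 -1.44 (adjusted p = 0.244). Cd8a was at 0.04 (adjusted p = 0.880), Foxp3 at -0.01 (adjusted p = 0.972), the macrophage mannose receptor Mrc1 at -0.22 (adjusted p = 0.932), the integrin Itga4 at -0.19 (adjusted p = 0.796) and the nitric oxide synthase Nos2 at -0.10 (adjusted p = 0.772). These values do not show that the groups were alike.

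Other host tissue differed between tumors without passing in any gene. All 20 muscle genes were above 0 (median 1.85) and 0 passed, and the median was -0.04 without the 3 tumors. Of 18 fibroblast and matrix genes 17 were above 0 and 0 passed (median 0.83, and 0.22 without those tumors). The fibroblast list mean was 11.77, 7.78, 9.93 and 8.73 in MEKi+CD40 and 8.19, 8.10, 10.62 and 7.86 in CD40 tumors. It was high in the same 3 tumors as muscle. Leaving out MEKi+CD40 tumor 1 gave medians of 0.51 for muscle and 0.14 for fibroblast genes, and leaving out CD40 tumor 3 gave 2.33 and 1.55 for the same lists. The mitosis list mean was 9.21 and 8.67 in MEKi+CD40 tumors 1 and 3, beside 9.60 and 9.26 in MEKi+CD40 tumors 2 and 4, and CD40 tumor 3 was the lowest of its group at 9.96. MEKi+CD40 tumors 2 and 4, which lacked muscle signal, were below every CD40 tumor for both the mitosis and the replication list.

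**Figure D4:**
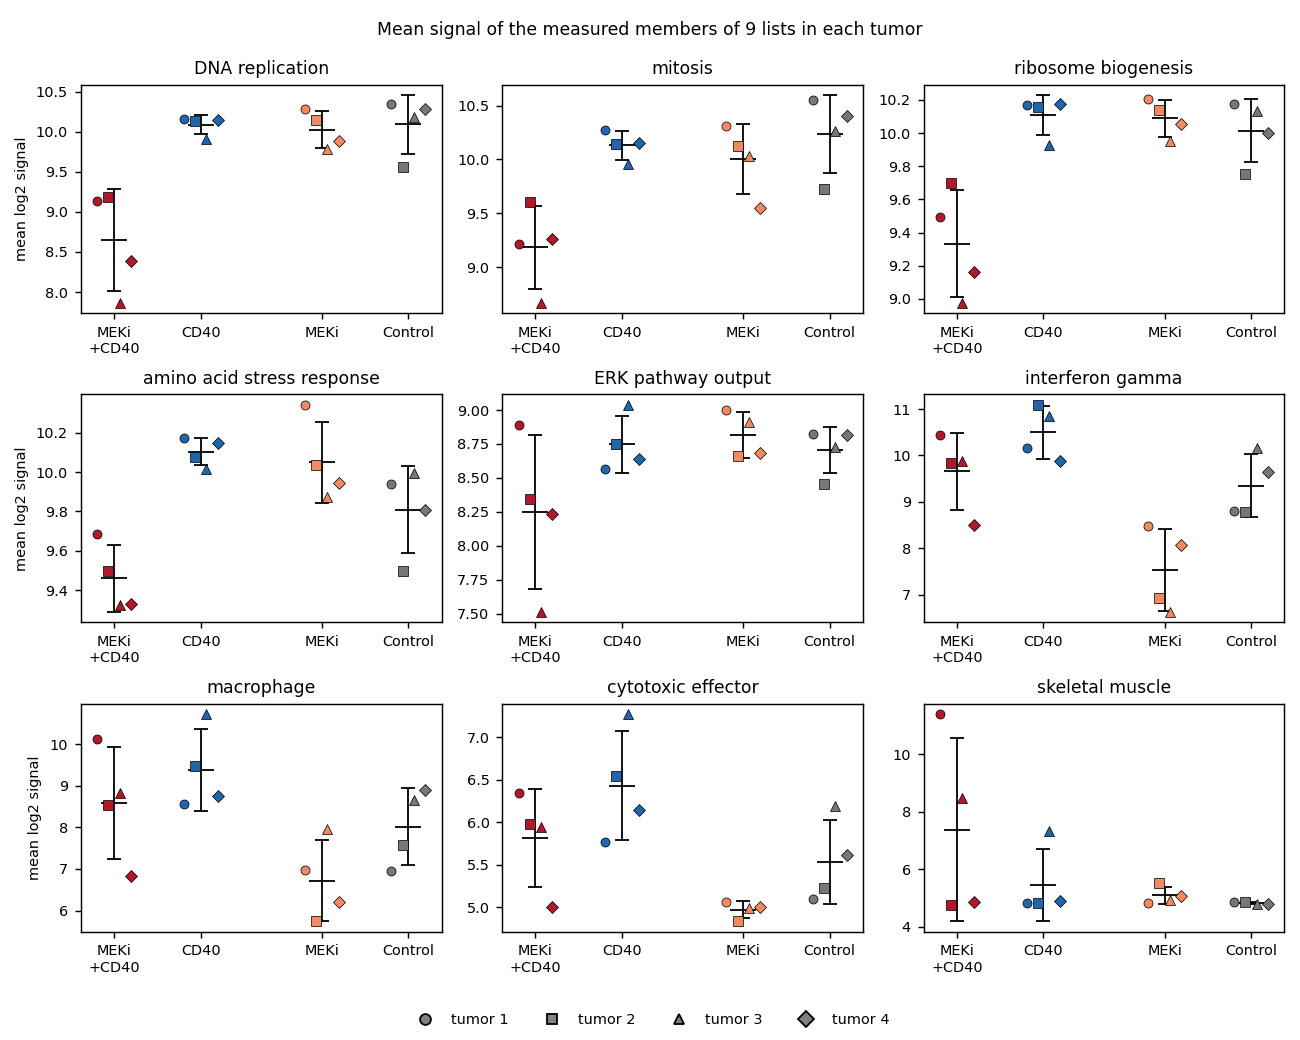
Mean log2 signal of the measured members of 9 gene lists (vertical axes, which do not start at 0) in each of the 16 tumors, with MEKi+CD40 left of CD40 and MEKi left of Control, a marker shape for each tumor number and black bars for the mean and SD of 4 tumors. The MEKi+CD40 tumors lie below all CD40 tumors for replication (7.87 to 9.19 against 9.91 to 10.15), mitosis, ribosome biogenesis and amino acid stress, and they overlap for ERK output, interferon gamma, macrophage, cytotoxic and muscle genes.

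The same inhibitor without the antibody provides values from tumors that share no array with the 8 above. In MEKi against Control tumors limma called 0 probe sets, with a smallest adjusted p of 0.0538 and 3110 probe sets at an unadjusted p under 0.05. The DNA replication list had a median of -1.42 for MEKi+CD40 minus CD40 and of -0.07 for MEKi minus Control, with list means of 10.28, 10.15, 9.79 and 9.88 in MEKi tumors and 10.35, 9.55, 10.18 and 10.28 in Control tumors. Ribosome biogenesis had medians of -0.71 with the antibody and 0.08 without it, amino acid stress -0.70 and 0.27, and mitosis -0.93 and -0.25. For the interferon and MHC lists the medians were lower without the antibody, at -0.87 with it and -1.91 without it for interferon gamma and at -0.82 and -1.95 for MHC class II. The difference between these effects, tested as an interaction on all 16 arrays, passed for 0 probe sets by limma, with a smallest adjusted p of 0.0971 and 6424 (14.26%) at an unadjusted p under 0.05. Of the DNA replication genes 24 of 24 had an unadjusted interaction p under 0.05, as did 22 of 24 ribosome biogenesis, 15 of 16 nucleotide synthesis and 19 of 30 mitosis genes, but 0 of these passed adjustment. These lists were chosen with earlier results of these data known and are singled out for low medians with the antibody. Their counts therefore favour a difference. Dbp had a difference of 1.96 with the antibody and 0.28 without it (interaction 1.68, limma adjusted p = 0.0971), and Cth had -2.0 with it and 0.63 without it (interaction -2.62, adjusted p = 0.101). Kcnn4 and the other genes named above were chosen by their differences with the antibody, so their interaction values favour a difference. Trnp1 differed in the same direction without the antibody, by 1.74.

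**Figure D5:**
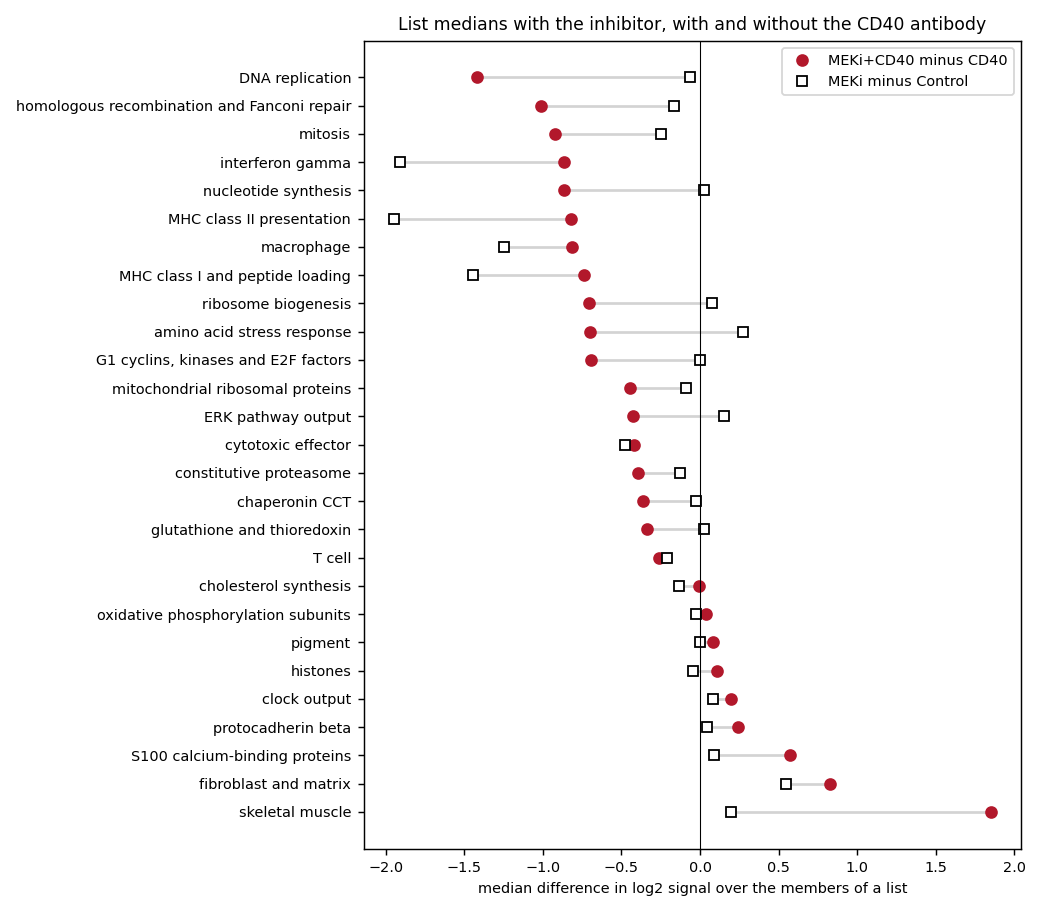
Median log2 difference over the measured members of 27 gene lists (horizontal axis), as red circles for MEKi+CD40 minus CD40 and open squares for MEKi minus Control, with a grey line joining the 2 values of a list. Replication (-1.42 and -0.07), nucleotide synthesis and ribosome lists lie further left with the antibody present, and interferon gamma (-0.87 and -1.91) and MHC class II lie further left without it, while no probe set passed the test of the difference after adjustment.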

How the data were processed

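RNA (200 ng) from 16 snap-frozen B16-OVA tumors was labelled with 3′ IVT Plus chemistry on Affymetrix mouse arrays, 1 per tumor. The authors normalised the scans by the robust multichip average (RMA) in Chipster and deposited log2 signals; no RMA version is named. These were used without further normalization. Groups came from the labels, and each label number is 1 mouse, so p-values measure the spread between these tumors.

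After leaving out 64 Affymetrix controls, 45037 probe sets were fitted on the 8 MEKi+CD40 and CD40 arrays with lmFit and eBayes of limma 3.58.1 (R 4.3.3), two-sided, with calls at an adjusted p (Benjamini-Hochberg) under 0.05. MEKi and Control were fitted likewise and the interaction on 16 arrays. Of the probe sets, 34945 carry 1 gene symbol, 932 several and 9160 none. A gene is given by its brightest probe set with 1 symbol over all arrays, and genes named for size by the one with the largest difference. Background was set from 44 olfactory receptor probe sets, as the 95th percentile of their means (4.94), and 39.73% of probe sets lay at or below it. Named genes were up to 12 per direction by size of difference among called genes without overlap and above background, up to 4 per list by smallest p, and genes listed by name; a part of these is given. The members and lists were chosen with earlier results of these data known. List counts and medians carry no test. Same-numbered tumors did not deviate together throughout (correlations -0.517, 0.291, 0.178 and 0.416), so the numbers were not used as pairs. In simulated data for this comparison, with 200 of 45037 probe sets changed, 28.36%, 70.15% and 90.91% were recovered at log2 changes of 0.5, 1 and 2. There were 7 calls among the unchanged probe sets. Noise was drawn independently for each probe set, so variation shared by many genes of a tumor was not simulated. The recovery rates therefore need not hold for the real tumors. The number of arrays and signal over background limit the precision. RefSeq promoter windows covered 27025 genes. Tables were made with pandas 2.3.3 and numpy 2.4.6 in Python 3.11.15, and figures with matplotlib 3.10.9. Alternatives tried were other normalizations, filters, variance models, probe set rules, a block for the tumor number, a muscle covariate and leaving out tumors.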

Additional observations from a re-analysis of the deposited data

Results flagged for a closer look

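A tumor was picked out when its gap to the nearest of the other 3 of its group, as a share of the range of the group, passed Dixon's 95% critical value for 4 samples. This occurred in 26 of 318 groups (8.18%), where chance flags about 1 in 20 groups. CD40 tumor 3 stood apart 14 times, more often than any other tumor. It was low for Prim1 (0.905), Dctpp1 (0.861), Gart (0.931), Fanci (0.865), Fbl (0.929) and Gar1 (0.895) and for the list means of DNA replication (0.939) and ribosome biogenesis (0.94), and high for S100a13 (0.85), the muscle gene Mylpf (0.903) and the list means of CDK inhibitors and p53 targets (0.855), skeletal muscle (0.974), fibroblast (0.882) and endothelial (0.834) genes. For Prim1, Fbl, Gar1 and the list means of DNA replication and ribosome biogenesis, its value lay between those of the other CD40 tumors and those of the MEKi+CD40 tumors. This did not hold for all proliferation genes, and for Ccnd1 it was the highest of the CD40 tumors.

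MEKi+CD40 tumor 4 was low for the cytotoxic protease Gzma (0.835), the antigen trimming peptidase Erap1 (0.895), the immunoproteasome subunit Psmb8 (0.95), H2ac19 (0.885) and the MHC class I list mean (0.848). MEKi+CD40 tumor 3 was low for Mki67 (0.972) and Spry4 (0.84) and high for H2aw (0.951). The Spry4 value of tumor 3 (4.15) and the Gzma value of tumor 4 (4.7) lay below the background level of 4.94. MEKi+CD40 tumor 1 was low for the pigment list mean (0.895). MEKi+CD40 tumor 2 was high for Psmd1 (0.909) and low for Pcdhb17 (0.911), and CD40 tumor 2 was high for Psmc6 (0.857).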

How the results depend on the processing

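With 1027 probe sets higher and 1106 lower as reported, a fit of all 16 arrays gave 2484 and 2825, array weights 2081 and 2314, and the fit without the 3 tumors holding muscle 674 higher (852 lower). Median centring of each array gave 718 lower (875 higher). With the tumor number as a replicate block the counts were 0 and 0, although 3997 and 4692 probe sets had an unadjusted p under 0.05; the pairing is not borne out by the data or the labels. Leaving out 1 tumor gave 0 to 1903 higher and 0 to 1605 lower, with over 1.5-fold fewer of both without MEKi+CD40 tumors 3 or 4 or any of the CD40 tumors and over 1.5-fold more higher without MEKi+CD40 tumor 1. The interaction gave 0 under the 4 alternatives run for it, which were median centring, the filter on dim probe sets, the fit without the tumors holding muscle and the replicate block (smallest adjusted p 0.0761 to 0.134).

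Of the 88 named genes that passed, 0 changed direction under any alternative, 27 lost the call without the tumors holding muscle and 88 with the replicate block. The groups did not overlap for 99.95% of called probe sets, so leaving out tumors could not reverse them. The kept direction therefore adds no support. Values near 0 did change sign. These were Cd8a (-0.002 with cyclic loess; -0.0142 to 0.0925 with a tumor left out), Foxp3 (0.0196 with the muscle covariate; -0.0525 to 0.0475 with a tumor left out), Mrc1 (-1.1558 to 0.4675 with a tumor left out) and Itga4 (0.0767 without the tumors holding muscle; -0.4058 to 0.0692 with a tumor left out). Medians that moved by more than the spread were those of CDK inhibitors and p53 targets (0.0925 with all probe sets of each gene averaged; 0.1242 to 0.4325 with a tumor left out), amino acid stress (-0.5533; -0.6954 to -0.5704), the RAS to ERK kinases (0.035; 0.185 to 0.2992), protocadherin beta (0.7975 with a filter on dim probe sets, 0.3523 with the muscle covariate; 0.2337 to 0.3158), histones (0.2963 with the filter, 0.0202 with array weights, 0.0267 without the tumors holding muscle; 0.0342 to 0.1367) and oxidative phosphorylation (0.1667 without those tumors). With the filter, the medians were taken over only 6 protocadherin beta and 12 histone genes, and so over a different set of members. The cause of the other moves was not tested. Signal at or below background for 39.73% of probe sets limits the dimmer genes.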

Other observations

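Gene groups not described above gave few calls by limma. Fcgrt, the neonatal Fc receptor that recycles immunoglobulin, was 9.70, 9.11, 9.63 and 9.22 in MEKi+CD40 and 8.34, 8.15, 8.99 and 8.37 in CD40 tumors (difference 0.95, SE 0.21, adjusted p = 0.0431). It went against its list of 6 Fc receptor genes, in which 5 differences were below 0 (median -0.94, and -1.60 without the tumors holding muscle). Bad, a death-promoting BCL2 relative that growth signalling restrains, was 9.50, 9.48, 9.60 and 9.63 in MEKi+CD40 and 9.21, 9.07, 9.18 and 9.22 in CD40 tumors (difference 0.38, SE 0.07, adjusted p = 0.0349). Fkbp5, a glucocorticoid-induced chaperone, was 9.38, 9.45, 9.24 and 9.33 in MEKi+CD40 and 10.04, 9.84, 9.75 and 10.05 in CD40 tumors (difference -0.57, adjusted p = 0.0298). Of 18 glucocorticoid-responsive genes, 15 differences were above 0 (median 0.36, and -0.03 without the tumors holding muscle). Arhgdib, a gene of blood cells, was the 1 of 16 pan-leukocyte genes to fall, at 10.60, 10.93, 10.37 and 10.90 in MEKi+CD40 and 11.28, 11.61, 11.45 and 11.23 in CD40 tumors (difference -0.69, adjusted p = 0.0407). In all 4 genes the groups did not overlap.

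The 17 oxidative phosphorylation genes had a median of 0.04 with 0 called, beside -0.45 for the mitochondrial ribosomal proteins. The 17 cholesterol synthesis genes had a median of -0.01 with 0 called, and of 0.30 with 3 higher without the tumors holding muscle. The 21 type I interferon genes had a median of -0.40 with 0 called and no gene free of overlap, and its median was -0.10 without MEKi+CD40 tumor 4 and -0.09 without CD40 tumor 2, while the same list had a median of -1.10 for MEKi minus Control. The 15 T cell genes had a median of -0.26 and the 18 cytotoxic genes -0.42, with 0 called in either. These medians were 0.04 and -0.13 without CD40 tumor 3, -0.01 and -0.13 without MEKi+CD40 tumor 4, and -0.59 and -0.91 with the muscle score as a covariate.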
